A study of Mus musculus with 6 samples.

Results

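Schwann cells are the glia of peripheral nerves. Some wrap single axons in myelin, a sheath held together by proteins such as *Mbp* and *Pmp22*, and others hold several thin axons without myelin, which is the usual state of the sympathetic fibers that run along arteries. The transcription factor *Sox10* keeps the Schwann cell fate, and the receptor *Erbb3* receives neuregulin from axons. The 8 genes described here were *Sox10*, *Pmp22*, *Mbp*, *S100b*, *Ngfr*, *Cdh19*, *Erbb3* and *Prx*, taken by symbol from a table of 55426 genes, and each symbol gave 1 row. RNA was measured in whole abdominal aortas of male mice on a C57BL/6J background, 3 control and 3 Prdm16SMKO, 1 library each. Prdm16SMKO mice carried floxed *Prdm16* on both alleles (*Prdm16* fl/fl) and *Myh11*-CreERT2, a tamoxifen-inducible Cre that the *Myh11* promoter drives in smooth muscle cells. Controls carried *Myh11*-CreERT2 with wild-type *Prdm16*, so Cre was common to both groups. Per the study's methods, the CreER cassette sits on the Y chromosome, and male mice aged 8 to 10 weeks received tamoxifen by gavage at 75 mg/kg/day for 5 days. The age at which RNA was taken is not given in the sources used here.

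Values are TPM, the abundance of a gene's transcripts corrected for their length, with an equal total for each library. The read depth of single libraries is unknown; the submitters state an average of 40 M read pairs of 151 bp. Between 20332 and 22100 genes were above 0 TPM per library, 45S ribosomal RNA took 15.6% to 31.4% of a library's TPM and mitochondrial transcripts took 15.8% to 27.4%. Median-of-ratios size factors, by which libraries can be put on a common scale, were 1.01, 1.13 and 0.865 across control replicates 1, 2 and 3. Across Prdm16SMKO replicates 1, 2 and 3 they were 1.04, 1.04 and 0.928. Values were not divided by them unless stated. The targeted gene *Prdm16* lay between 30.8 and 36.8 TPM in control and between 14.8 and 27.7 TPM in Prdm16SMKO libraries, without overlap. Nothing in the labels says that the 3 libraries of a group came from separate extractions or days, so p-values measure the spread between these libraries. In bulk tissue, fewer cells of a type and less RNA per cell cannot be told apart.

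The 8 genes were detected in every library, and for all of them but *S100b* the highest and lowest library of each genotype lay further apart, as a fold, than the means of the genotypes did. Prdm16SMKO replicates 1 and 2 and control replicate 2 were the 3 highest libraries for 7 of the 8 genes (87.5%), against 17.6% of the 15775 genes tested. *S100b* was the exception, and it was also the one member whose groups did not overlap. *Pmp22* does not keep the same 3 highest libraries when its values are divided by the size factors. These 3 libraries were picked from the members' own values. The share of 87.5% follows from that choice and is a description, not a test against the other genes. None of the 8 genes passed the test between genotypes.

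*Sox10* (ENSMUSG00000033006, GRCm38 chr15:79154908-79165240, minus strand), the transcription factor of the Schwann cell lineage, stood at 1.19, 3.47 and 0.59 TPM across control replicates 1, 2 and 3 and at 8.22, 4.21 and 1.31 TPM across Prdm16SMKO replicates 1, 2 and 3. Its lowest library was a control and its highest a Prdm16SMKO aorta, 13.9-fold apart, yet control replicate 2 lay above Prdm16SMKO replicate 3, so the groups overlapped. The highest library exceeded the lowest 5.88-fold within control and 6.27-fold within Prdm16SMKO mice. The spread of *Sox10* within groups was larger than that of 95.8% of the genes tested.

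Of the receptors, *Erbb3* (ENSMUSG00000018166, chr10:128567523-128589652, minus strand) was at 0.65, 1.7 and 0.46 TPM across control replicates 1, 2 and 3 and at 4.10, 2.15 and 0.59 TPM across Prdm16SMKO replicates 1, 2 and 3. It followed the order of *Sox10* except that Prdm16SMKO replicate 3 fell below control replicate 1. *Ngfr* (ENSMUSG00000000120, chr11:95568818-95587735, minus strand), the low-affinity neurotrophin receptor p75 that both Schwann cells and sympathetic neurons make, was at 0.40, 7.24 and 0.36 TPM in control and at 48.6, 0.91 and 0.42 TPM across Prdm16SMKO replicates 1, 2 and 3. *Ngfr* was thus high in 1 library of each genotype and below 1 TPM in the other 4, a range of 135-fold between the lowest and the highest library. In Prdm16SMKO replicate 2, where *Sox10* and *Erbb3* were second highest, *Ngfr* stayed at 0.91 TPM.

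*Cdh19* (ENSMUSG00000047216, chr1:110888326-110977584, minus strand), a cadherin of Schwann cells and their precursors, was at 1.15, 3.38 and 1.04 TPM in control and at 8.41, 4.07 and 1.6 TPM across Prdm16SMKO replicates 1, 2 and 3. The 6 libraries stood in the same order as for *Sox10*. *S100b* (ENSMUSG00000033208, chr10:76253853-76261159, plus strand), a calcium-binding protein of glia that adipocytes also make, was at 6.06, 7.28 and 5.56 TPM in control and at 12.5, 9.47 and 9.93 TPM across Prdm16SMKO replicates 1, 2 and 3. Every Prdm16SMKO library was above every control library, and Prdm16SMKO replicate 3, which was not among the 3 highest libraries for any other member, was second highest. The summed level of 9 white adipocyte genes was also highest in that library, at 4089 TPM, and 8 of the 9 were highest there, *Plin4* being the exception. The next highest sum, 1742 TPM, was that of control replicate 1, where *S100b* was at 6.06 TPM, and the other 4 libraries lay between 868 and 1177 TPM. The part of adipocyte RNA in the *S100b* values was not tested.

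Among the myelin genes, *Mbp* (ENSMUSG00000041607, chr18:82475146-82585637, plus strand), which encodes the myelin basic proteins, was at 11.7, 30.1 and 5.97 TPM in control and at 67.2, 27.6 and 9.12 TPM across Prdm16SMKO replicates 1, 2 and 3. The range was 11.3-fold, and control replicate 2 lay above Prdm16SMKO replicates 2 and 3. GENCODE lists 16 transcripts of *Mbp*, of which 4 begin at the upstream start of the Golli forms, and the gene-level TPM does not separate them. *Prx* (ENSMUSG00000053198, chr7:27499324-27520214, plus strand), a scaffold protein that ties the Schwann cell membrane to the basal lamina, was at 5.65, 9.16 and 4.44 TPM in control and at 11.0, 7.82 and 5.18 TPM across Prdm16SMKO replicates 1, 2 and 3. *Prx* kept the order of libraries seen for *Mbp* over a narrower range of 2.47-fold. *Pmp22* (ENSMUSG00000018217, chr11:63128982-63159547, plus strand), a membrane protein of compact myelin that many other cell types also make, was at 108, 137 and 97.3 TPM in control and at 127, 111 and 77.3 TPM across Prdm16SMKO replicates 1, 2 and 3. It was the member with the highest level and the narrowest range, 1.78-fold, and Prdm16SMKO replicate 3 was its lowest library.

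**Figure D1:**
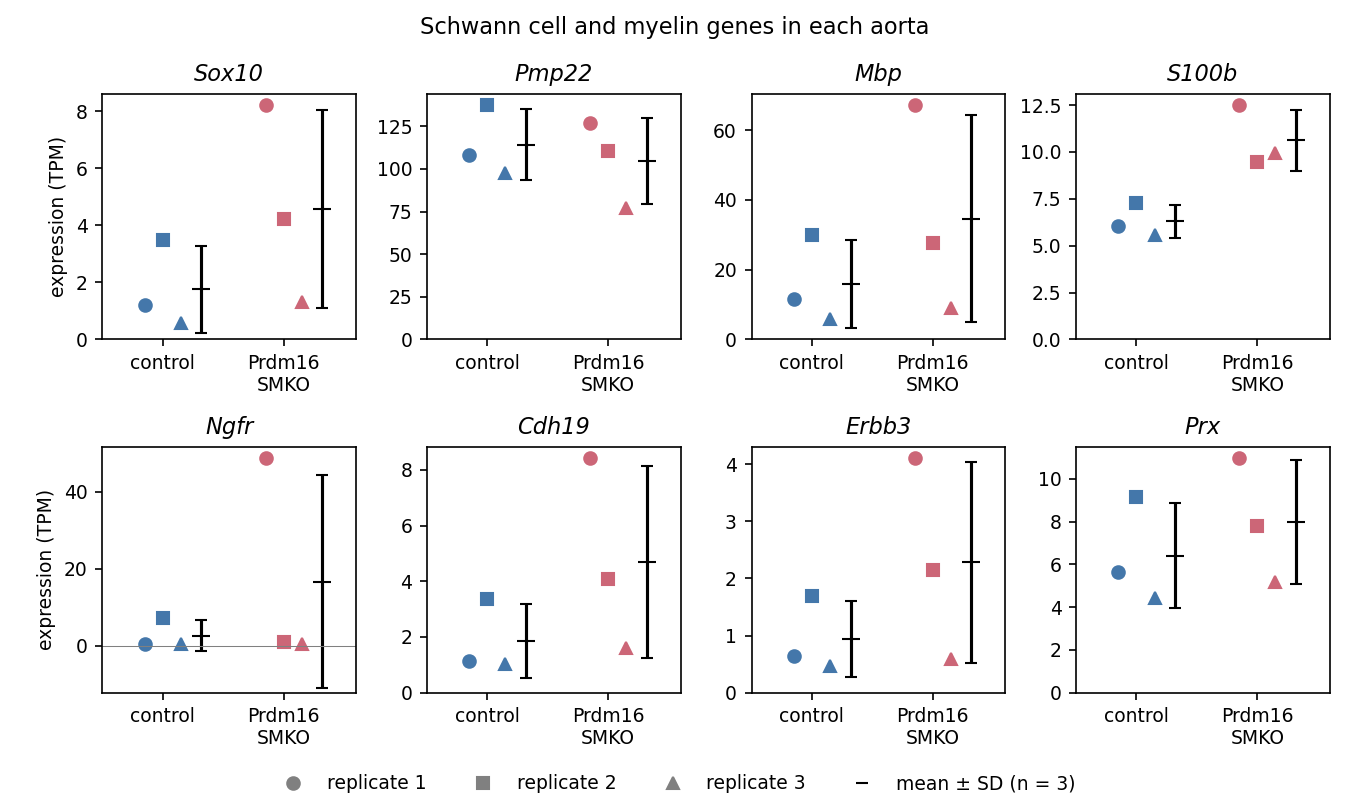
Expression of the 8 genes in TPM (vertical axes, 1 panel per gene with its own scale), with each library as a point shaped by its replicate number and the mean ± SD of 3 libraries per group beside the points. In all panels but that of *S100b* the points of the groups overlap, and Prdm16SMKO replicate 1 reaches 8.22 TPM for *Sox10* and 48.6 TPM for *Ngfr*.

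Because TPM is per transcript length, levels could be compared between genes. By the mean of the 6 libraries the order was *Pmp22* (110 TPM), *Mbp* (25.3), *Ngfr* (9.66), *S100b* (8.47), *Prx* (7.20), *Cdh19* (3.28), *Sox10* (3.17) and *Erbb3* (1.61). *Pmp22* was above *Mbp*, *Mbp* above *Ngfr*, *Prx* above *Cdh19* and *Sox10* above *Erbb3* in 6 of 6 libraries. The mean of *Ngfr* exceeded that of *S100b* through Prdm16SMKO replicate 1 alone, the 1 library of 6 with that order. *S100b* was above *Prx* in 5 of 6 libraries and *Cdh19* above *Sox10* in 3 of 6, so *Cdh19* and *Sox10* were not told apart by their level.

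The comparison of genotypes asks whether loss of *Prdm16* in smooth muscle cells went with a different level of these glial genes in the aortic wall. The mean of *Sox10* was 1.75 ± 1.52 TPM in control mice (SD, n = 3) and 4.58 ± 3.47 TPM in Prdm16SMKO mice (SD, n = 3). Its log2 fold change on the log2(TPM + 0.5) scale was 1.12 with a standard error of 0.62 and a 95% interval of −0.29 to 2.52 (limma, Benjamini-Hochberg adjusted p = 0.720). Single libraries moved it, to 0.59 without Prdm16SMKO replicate 1 and to 1.72 without Prdm16SMKO replicate 3. The mean of *S100b* was 6.30 ± 0.885 TPM in control mice (SD, n = 3) and 10.6 ± 1.63 TPM in Prdm16SMKO mice (SD, n = 3). Its log2 fold change was 0.71 with a standard error of 0.19 and an interval of 0.29 to 1.13, which missed the threshold after adjustment (limma, unadjusted p = 0.00444, Benjamini-Hochberg adjusted p = 0.245). Under the alternative settings the adjusted p of *S100b* lay between 0.0284, found with array weights in limma, and 0.605. The exact two-sided permutation test gave p = 0.1 for *S100b*, the smallest that 3 libraries against 3 allow, and 0.2 to 0.7 for the other members.

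The other 6 members had wide intervals around their differences. Log2 fold changes were 1.14 for *Ngfr*, 1.04 for *Cdh19*, 0.97 for *Mbp*, 0.82 for *Erbb3*, 0.29 for *Prx* and −0.14 for *Pmp22*, with adjusted p between 0.687 and 0.952 (limma, Benjamini-Hochberg). Without Prdm16SMKO replicate 1 the log2 fold change was 0.53 for *Cdh19*, 0.29 for *Mbp*, 0.34 for *Erbb3* and 0.049 for *Prx*, and without Prdm16SMKO replicate 3 it was 1.57, 1.7, 1.38 and 0.56 in that order. Without control replicate 2 the values of *Mbp* and *Prx* were 1.57 and 0.56, and without control replicate 3 those of *Sox10*, *Mbp* and *Prx* were 0.70, 0.45 and 0.081. The widest interval was that of *Ngfr*, from −2.14 to 4.41, and its log2 fold change was −0.67 without Prdm16SMKO replicate 1 and 0.60 to 2.20 without any 1 of the other 5 libraries. The narrowest of the 6 was that of *Pmp22*, from −0.63 to 0.36, and without control replicate 2 or Prdm16SMKO replicate 3 the difference of *Pmp22* was 0.0035 or 0.068. These fold changes understate the change of low genes, since 0.5 TPM was added to every value. The interval of each member but *S100b* held both 0 and values of more than 0.3 on the log2 scale, so that neither a difference nor its absence was shown.

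**Figure D2:**
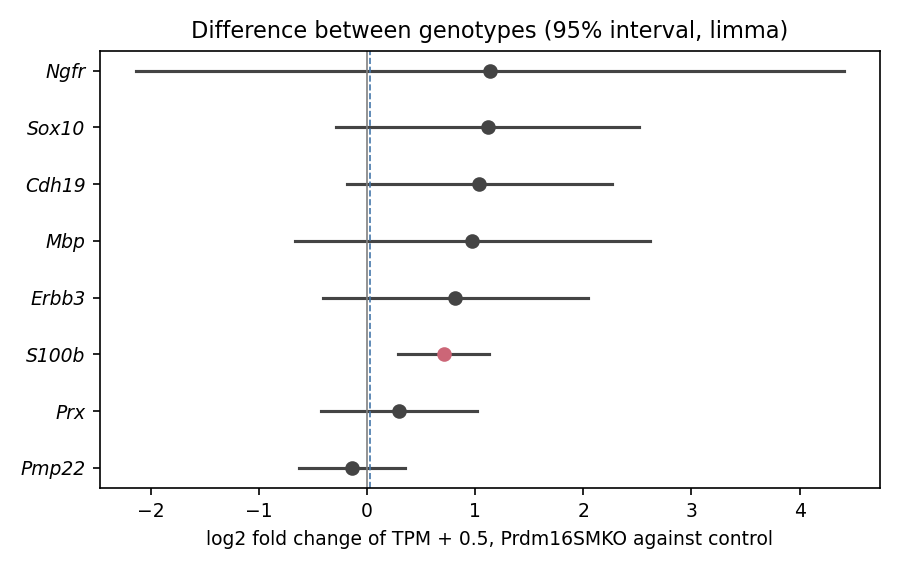
Log2 fold change of TPM + 0.5, Prdm16SMKO against control (horizontal axis), for each of the 8 genes, with limma's 95% interval from 3 libraries per group; the blue dashed line is the median of all genes tested (0.02) and the red point marks the gene with an unadjusted p under 0.05. Every interval but that of *S100b* (0.29 to 1.13) crosses 0, and that of *Ngfr* is the widest.

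Of the 8 members, 0 were called at an adjusted p under 0.05 (limma, Benjamini-Hochberg), where 0.355% of all genes tested were, 0.184% as higher and 0.171% as lower in Prdm16SMKO mice. At an unadjusted p under 0.05 (limma) it was 1 member, *S100b*, against 8.74% of all genes. Without control replicate 2 it was 3 members, against 1183 of all 15806 genes tested in that fit. Without Prdm16SMKO replicate 3 it was 5 members, against 1232 of 15813 genes. With array weights it was also 5, against 3177 of 15775 genes, and of these members array weights called *S100b*. The same member, 1 of 8, had groups that did not overlap, being higher in Prdm16SMKO mice, against 12.8% of all genes, 7.02% higher and 5.76% lower. A log2 fold change above 0 was found in 7 members and 54.2% of all genes. The median log2 fold change was 0.90 over the members and 0.02 over all genes. Since most members were high and low in the same libraries, their directions are not separate observations of the genotype.

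Along the 6 libraries, 4 members followed *Sox10* closely. On log2(TPM + 0.5), Pearson's r with *Sox10* was 0.99 for *Cdh19*, *Erbb3* and *Mbp* and 0.97 for *Prx*, and Spearman's rho was 1, 0.94, 0.89 and 0.89 in that order. The exact permutation p of r was 0.00278 for *Cdh19*, the smallest that 6 libraries allow, 0.00556 for *Erbb3* and 0.0111 for *Mbp* and *Prx*, and adjusted over the 7 relations computed each was 0.0194. The exact permutation p of rho, adjusted in the same way, was 0.0194 for *Cdh19*, 0.0389 for *Erbb3* and 0.0467 for *Mbp* and *Prx*. With control replicate 3 and Prdm16SMKO replicate 1, the libraries farthest from the median of *Sox10*, left out, r stayed at 0.91 to 0.99 over 4 libraries. With the mean of each genotype removed, r was 0.982 to 0.997. The libraries also differ in their size factors and in their ribosomal and mitochondrial shares, which all genes of a library have in common.

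The remaining 3 members followed *Sox10* less. For *Ngfr* r was 0.85 and rho 0.94 (exact permutation p = 0.0194 and 0.0167, adjusted 0.0272 and 0.0389), and r fell to 0.63 without the 2 farthest libraries, so that the relation rests on them. For *S100b* r was 0.78 and rho 0.83 (exact permutation p = 0.0833 and 0.0583, adjusted 0.0972 and 0.0681), with r of 0.27 without the same libraries. For *Pmp22* both were 0.66 (exact permutation p = 0.15 and 0.175). Within genotypes *Pmp22* did follow *Sox10*, with r = 0.99 after the group means were removed, over the narrow range given above. Size factors also differed between libraries, from 0.865 to 1.13, and their part in this r was not tested. Over the 6 libraries *Ngfr* ranked 966, *S100b* 1724 and *Pmp22* 3181 of 12124 genes in likeness to *Sox10*. In the same ranking *Mbp* stood at 3, *Cdh19* at 6 and *Prx* at 55.

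The level of each member was also divided by that of *Sox10* in the same library. *Cdh19* was 0.966 to 1.76 times *Sox10* and *Erbb3* 0.450 to 0.780 times *Sox10* over the 6 libraries, although *Sox10* itself ranged 13.9-fold. The ratio of *Mbp* to *Sox10* was 9.83, 8.67 and 10.1 in control and 8.17, 6.55 and 6.96 in Prdm16SMKO replicates 1, 2 and 3. This ratio was lower in every Prdm16SMKO than in every control library, with p = 0.1 by an exact two-sided permutation test, the smallest possible, a comparison singled out from 7 ratios after the values were seen. In contrast, *Pmp22* was 15.4 to 165 times, *S100b* 1.52 to 9.42 times and *Prx* 1.33 to 7.53 times *Sox10*. Each of these ratios was lowest where *Sox10* was highest, also that of *Prx*, which followed *Sox10* closely by r. *Ngfr* was 0.336, 2.09 and 0.610 times *Sox10* in control and 5.91, 0.216 and 0.321 times in Prdm16SMKO replicates 1, 2 and 3, highest in the 2 libraries in which sympathetic neuron genes were highest.

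**Figure D3:**
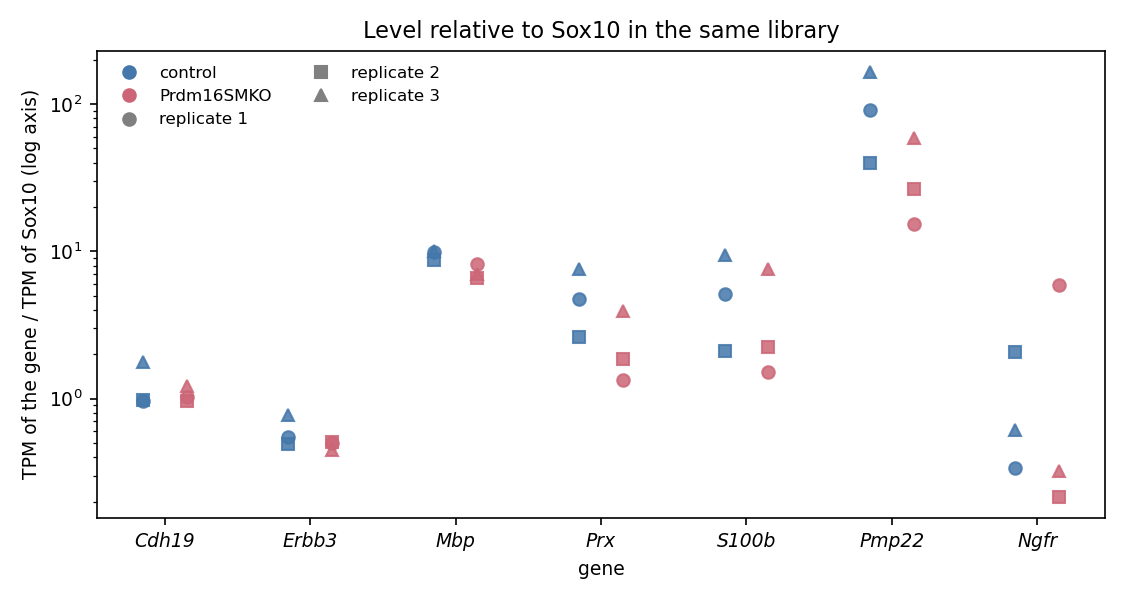
TPM of each of 7 genes divided by TPM of *Sox10* in the same library (vertical axis, log scale), with the 3 control libraries in blue and the 3 Prdm16SMKO libraries in red, shaped by replicate number. *Cdh19*, *Erbb3* and *Mbp* stay within narrow bands, whereas *Ngfr* spreads from 0.216 to 5.91 and *Pmp22* from 15.4 to 165.

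The genes most alike each member across the 6 libraries, by Pearson's r of log2(TPM + 0.5) among 12124 genes averaging 2 TPM or more (12125 for *Erbb3*, itself below that level), are given as a description. For *Sox10* they included *Lca5* (r = 0.998) and *Mbp* (0.988), and for *Mbp* they included *Kcna5* and *Ippk*. *Erbb3* was most like *Mal*, a proteolipid of myelin, then *Gadd45b* and *Gatm*, and *Cdh19* was most like *Sema6d*, *Vat1* and *Rnf144b*. *Prx* was most like *Smim13*, *Vwa1* and *Perp*. *Ngfr* had a different company: its first 3 were *Stmn3*, *Nsg2* and *Scg5*, with r of 0.9998, 0.998 and 0.997, all of them known from neurons or neuroendocrine cells. *Stmn3* was at 0.10, 6.16 and 0.12 TPM in control and at 48.5, 0.55 and 0.19 TPM across Prdm16SMKO replicates 1, 2 and 3, nearly the values of *Ngfr* itself. *Th*, the enzyme that begins catecholamine synthesis, ranked 4 for *Ngfr* and 1364 for *Sox10*. *S100b* was most like *Gm47283*, *Rgs4* and *Eps8*, and *Pmp22* most like *Sfxn3*, *Elmo2* and *Csdc2*, none of them a gene of the glial lists.

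The RefSeq promoter table for GRCm38.p6 held 4 of the 8 members, *Pmp22*, *S100b*, *Ngfr* and *Prx*. The bases just upstream of the start in that table are shown for 1 gene of each library pattern: *Prx*, which followed *Sox10*, *S100b*, whose groups did not overlap, and *Ngfr*, which was high in 2 libraries. They are GRCm38.p6 chr7:27499074-27499323 on the plus strand for *Prx*, chr10:76253586-76253835 on the plus strand for *S100b* and chr11:95587736-95587948 on the minus strand for *Ngfr*. The window of *Ngfr* was cut to 213 bases, ahead of its exon, and the others hold 250. For *S100b* the window ends short of the GENCODE start at 76253853. The bases after its RefSeq start were not found in the GENCODE transcripts of *S100b*.
Prx: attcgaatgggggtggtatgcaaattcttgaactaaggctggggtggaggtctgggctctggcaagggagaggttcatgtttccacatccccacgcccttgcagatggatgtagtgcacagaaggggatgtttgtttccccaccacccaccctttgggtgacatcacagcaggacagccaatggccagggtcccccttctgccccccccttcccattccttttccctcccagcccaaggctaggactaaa
S100b: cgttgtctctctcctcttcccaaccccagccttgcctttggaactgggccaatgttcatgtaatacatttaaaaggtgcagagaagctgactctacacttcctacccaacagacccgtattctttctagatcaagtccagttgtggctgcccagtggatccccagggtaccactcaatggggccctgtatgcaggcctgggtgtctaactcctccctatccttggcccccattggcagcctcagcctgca
Ngfr: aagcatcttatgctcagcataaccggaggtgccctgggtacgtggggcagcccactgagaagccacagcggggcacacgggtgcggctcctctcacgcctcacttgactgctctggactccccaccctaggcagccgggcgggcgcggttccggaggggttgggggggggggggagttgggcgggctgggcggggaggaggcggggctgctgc
The windows differ in base composition, with a GC content of 56.4% for *Prx*, 53.6% for *S100b* and 70.9% for *Ngfr*, against a median of 52.4% over 32851 promoters. The SOX core ACAAAG and the EGR core GTGGGCG, searched on both strands and not overlapping each other, had 0 matches in these 3 windows. Over uncut windows of 250 bases, 16.5% and 7.02% of all promoters hold them. That result says only that these letters are not in these bases.

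Many other genes of myelin were high in the same libraries as *Sox10*. Of 21 myelin sheath genes, 16 were tested, 14 had a log2 fold change above 0 and 2 below (median 0.48), 0 were called, and 11 had the 3 highest libraries of *Sox10*. *Cnp*, an enzyme of uncompacted myelin, was at 6.49 to 14.0 TPM in control and 7.61 to 19.3 TPM in Prdm16SMKO libraries, with overlap. *Ndrg1*, a cytoplasmic protein of Schwann cells and of many other cells, was lower in each Prdm16SMKO library (45.8 to 66.3 TPM) than in each control library (73.6 to 99.9 TPM), a log2 fold change of −0.54 (limma, Benjamini-Hochberg adjusted p = 0.452). *Mtmr2*, a phosphatase of membrane lipids, had a log2 fold change of 0.10 (adjusted p = 0.967).

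Of the genes of nonmyelinating Schwann cells 8 of 10 were tested, all 8 were above 0 (median 0.67), 0 were called and 7 had the 3 highest libraries of *Sox10*. *Fabp7*, a fatty acid binding protein of immature and satellite glia, was at 1.01, 7.20 and 1.91 TPM in control and at 27.6, 2.13 and 0.93 TPM across Prdm16SMKO replicates 1, 2 and 3. Its highest libraries were the same 2 that were high for *Ngfr*. *L1cam*, an adhesion molecule of unmyelinated axons and their glia, reached 15.5 TPM in Prdm16SMKO replicate 1 and was at 1.97 to 5.42 TPM elsewhere. *Scn7a*, a sodium channel of these cells, was at 5.26 to 6.97 TPM in control and 7.02 to 12.6 TPM in Prdm16SMKO libraries, without overlap (log2 fold change 0.71, limma, Benjamini-Hochberg adjusted p = 0.417). *Ncam1* differed by a log2 fold change of 0.07 (adjusted p = 0.987).

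Among regulators, those that other aortic cells also make varied less between libraries than *Sox10*. Of 12 transcription factors and cofactors, 8 were tested, 3 above and 5 below 0 (median −0.04), with 0 called and 4 with the 3 highest libraries of *Sox10*. *Zeb2*, *Hdac2*, *Nab1* and *Nab2*, the 4 highest, lay between 20.9 and 44.9 TPM in every library. *Foxd3*, a factor of the neural crest and of satellite glia named after its values were seen, was at 0.35, 0.78 and 0.35 TPM in control and at 4.62, 1.92 and 0.53 TPM across Prdm16SMKO replicates 1, 2 and 3. In the neuregulin and ERBB list, 6 of 10 were tested, 2 above and 4 below 0 (median −0.07), with 0 called and 0 with the 3 highest libraries of *Sox10*. *Erbb2*, the signalling partner of *Erbb3*, was named after its values were seen and stayed between 4.63 and 5.71 TPM, and *Nrg1*, the axonal ligand, at or below 1.06 TPM. The 4 highest, *Hbegf*, *Btc*, *Egfr* and *Nrg4*, had log2 fold changes of −0.43 to 1.16.

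For the neurotrophin genes around *Ngfr*, 10 of 12 were tested, 5 above and 5 below 0 (median 0.0053), with 0 called and 0 with the 3 highest libraries of *Sox10*. *Ntrk3*, the receptor of neurotrophin-3, was at 45.1 to 73.1 TPM in control and 84.6 to 110 TPM in Prdm16SMKO libraries, without overlap (log2 fold change 0.71, limma, Benjamini-Hochberg adjusted p = 0.297). *Maged1*, *Bex3* and *Sort1* had log2 fold changes of −0.19, 0.04 and −0.03. In the list of periaxin's partners and the laminin receptors, 8 of 10 tested genes were above 0 (median 0.19) and 0 were called, and the 4 highest, *Itgb1*, *Dag1*, *Utrn* and *Lamc1*, had log2 fold changes of −0.34 to 0.24. Of the family of *Pmp22*, 5 of 6 were tested, 2 above and 3 below 0 (median −0.14), with 0 called. *Tmem47* lay between 135 and 183 TPM, *Emp3* between 73.7 and 127 TPM and *Emp2* between 29.7 and 48.7 TPM in the 6 libraries, ranges as narrow as that of *Pmp22*.

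Markers of other cells separated the libraries that were high for the members. Sympathetic neuron genes were highest in control replicate 2 and Prdm16SMKO replicate 1. The sum of 18 such genes, most of it *Uchl1* in the other 4 libraries, was 57.3, 272 and 44.4 TPM in control and 1138, 102 and 78.3 TPM across Prdm16SMKO replicates 1, 2 and 3. *Th* was at 8.43 and 67.6 TPM in those 2 libraries, at 0.13 TPM in Prdm16SMKO replicate 2 and listed at 0 in the other 3. *Dbh*, the noradrenaline synthesizing enzyme, was at 13.8 and 84.6 TPM in the same 2 libraries and listed at 0 in the other 4. All 18 neuron genes had a log2 fold change above 0, 0 were called, and their median was 0.85. Prdm16SMKO replicate 2 therefore held *Sox10* at 4.21 TPM and *Mbp* at 27.6 TPM with *Th* at 0.13 TPM and *Dbh* listed at 0. Without Prdm16SMKO replicate 1 and control replicate 2 (a setting added once the data had been seen), the log2 fold change was 1.11 for *Sox10*, 0.96 for *Cdh19*, 0.89 for *Mbp*, 0.37 for *Ngfr* and 0.69 for *S100b*, with 0 members called. The part of nerve trunk or ganglion tissue in the dissected aortas was not tested.

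The members were also set beside other glia and pigment cells that share *Sox10*. Of 6 oligodendrocyte genes, *Mobp* and *Opalin* were listed at 0 in all 6 libraries, *Mog* was at or below 0.09 TPM and *Olig2* at or below 0.04 TPM. These markers were thus near 0. *Cldn11* was at 0.17, 0.38 and 0.06 TPM in control and at 0.69, 0.54 and 0.16 TPM across Prdm16SMKO replicates 1, 2 and 3. Its 3 highest libraries were those of *Sox10*. *Myrf*, which other cells also make, was at 6.65 to 11.7 TPM. Of the melanocyte genes *Pmel*, *Dct* and *Mlana* had means of 0.15, 0.10 and 0.64 TPM over the 6 libraries, and *Mitf*, which is not restricted to pigment cells, of 8.78 TPM. Rescaling TPM without mitochondrial and 45S transcripts kept the same 7 members with the same 3 highest libraries, left the groups of *S100b* apart and gave a range of 12.1-fold for *Sox10* and 117-fold for *Ngfr*. The size factors were also highest in those 3 libraries (1.13 in control replicate 2, 1.04 in Prdm16SMKO replicates 1 and 2). Divided by the size factors, *Pmp22* does not keep those 3 highest libraries. Control replicate 3 (97.3 TPM, size factor 0.865) then passes Prdm16SMKO replicate 2 (111 TPM, size factor 1.04). The other members with these 3 highest libraries keep them.

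**Figure D4:**
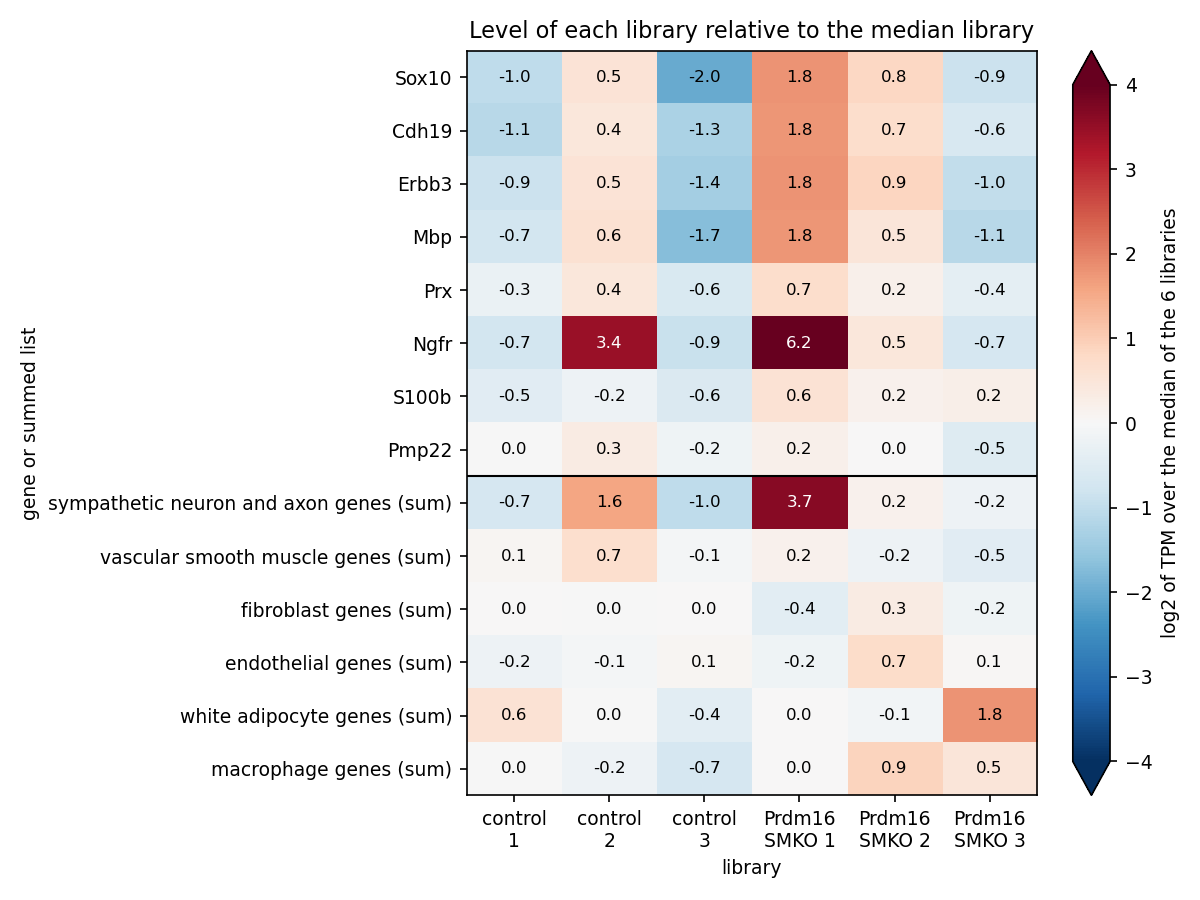
Log2 of TPM over the median of the 6 libraries (color, which saturates at ±4, and printed numbers) for the 8 genes and for summed lists of other cell types (rows) in each library (columns). Prdm16SMKO replicates 1 and 2 and control replicate 2 are above the median for *Sox10*, *Cdh19*, *Erbb3*, *Mbp* and *Prx*, whereas the neuron sum and *Ngfr* stand high in Prdm16SMKO replicate 1 and control replicate 2.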

How the data were processed

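RNA of 6 abdominal aortas was sequenced by the authors after polyA selection. Per the submitters' processing notes the tools were bcl2fastq, cutadapt 2.3, FastQC 0.11.8, STAR 2.7.8a, RSEM 1.3.3 and MultiQC 1.7 with build GRCm38. The authors deposited TPM values, which keep no read counts, so counting errors and detection limits could not be computed. Libraries were matched to mice by the names in the labels. Positions are those of GENCODE M21 on GRCm38.

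Genotypes were compared on log2(TPM + 0.5) over the 15775 genes whose mean reached 0.5 TPM, with limma 3.58.1 (R 4.3.3), an intensity trend in the moderated variances, two-sided p-values and Benjamini-Hochberg adjustment over all genes tested. Genes with an adjusted p under 0.05 count as called. Single genes and correlations were given exact permutation tests (Python 3.11.15, scipy 1.17.1, numpy 2.4.6, pandas 2.3.3, figures by matplotlib 3.10.9). The fit was tested on simulated data. The members and the lists of Schwann cell, nerve and other cell type genes were chosen with earlier results of these data known. Named were all members, called genes and up to 4 genes per list by mean TPM, and the 3 genes most alike each member; other genes were named after their values were seen, and a few genes covered by this rule are not reported here. Alternatives were 2 further pseudocounts, 2 other expression minimums, 3 other scalings, 3 other treatments of variance or library weight, a replicate block, each library left out and 2 libraries left out together.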

Additional observations from a re-analysis of the deposited data

How the results depend on the processing

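The number of members called was 0 with all settings but limma's array weights, where it was 1, *S100b* (log2 fold change 0.74, limma, Benjamini-Hochberg adjusted p = 0.0284). Over all genes the number called was 56, 29 higher and 27 lower, and it was 10 with no expression minimum, 153 with median-of-ratios size factors (61 higher and 92 lower), 129 with quantile normalization (46 and 83), 123 after rescaling without mitochondrial and 45S transcripts (55 and 68), 33 without a variance trend, 112 with robust variances (50 and 62), 494 with array weights, 4 with a replicate block, 13 without Prdm16SMKO replicate 1 and control replicate 2, and 5 to 61 in the fits that left out single libraries; the cause was not tested. The log2 fold change of *Pmp22* reversed without control replicate 2 (0.0035) and without Prdm16SMKO replicate 3 (0.068), over a range of −0.29 to 0.068, and that of *Ngfr* reversed without Prdm16SMKO replicate 1 (−0.67), over a range of −0.67 to 2.20. With each library left out, *Sox10* ranged from 0.59 to 1.72, *Mbp* from 0.29 to 1.7, *Cdh19* from 0.53 to 1.57, *Erbb3* from 0.34 to 1.38, *Prx* from 0.049 to 0.56 and *S100b* from 0.59 to 0.81. Same-numbered libraries showed no shared deviation (r of −0.13, −0.11 and 0.02), where pairs of unlike number reached from −0.17 to 0.24. With 3 libraries per group this is a coarse check, and a shared batch or day was not tested. With the replicate number as a block 0 members were called. *Erbb3* has no value at a minimum mean of 2 TPM. With 3 libraries per group and unknown depth, the intervals set what could be told for genes as variable as these.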

Other observations

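Lists of other cell types, with 54.2% of all genes above 0 and a median log2 fold change of 0.02 for comparison, each had 0 genes called (limma, Benjamini-Hochberg). All 9 macrophage genes were above 0 with a median of 0.75, and their sum was 81.7 to 128 TPM in control and 129 to 237 TPM in Prdm16SMKO libraries. The sums thus nearly met, at 128.4 TPM in control replicate 1 and 129.5 TPM in Prdm16SMKO replicate 1. Of the 9 genes 4 were higher without overlap, against 7.02% of all genes. *Lyz2* and *C1qa*, a lysozyme and a complement subunit, had log2 fold changes of 0.80 each (adjusted p = 0.437 and 0.386), and the groups of *Lyz2* overlapped. Of 9 endothelial genes 7 were above and 2 below 0 (median 0.34), of 9 fibroblast genes likewise 7 and 2 (median 0.20), and of 8 smooth muscle genes 2 and 6 (median −0.39). Of 9 white adipocyte genes 8 were above 0 (median 0.84), and of 5 brown adipocyte genes tested 1 was (median −0.14). Of 7 skeletal muscle genes tested 6 were above 0, and their list summed to 97.0 TPM in Prdm16SMKO replicate 1 against 6.90 to 14.7 TPM in the other 5 libraries. Both lymphocyte genes and all 4 chromaffin genes tested were above 0, of the melanocyte genes 1 of 2 was, and none of 5 mesothelial genes reached the expression minimum.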
